A study of Mus musculus with 2 samples.

Results

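The transcripts of 36 complement genes were followed through the cells of mouse liver. The genes were matched by symbol, and 36 of the 36 were found among the 32285 genes of the matrix. They encode the recognition molecules, proteases, central and terminal components, regulators and receptors of the complement system. Liver cells were profiled by droplet single-cell RNA-Seq after 2 weeks on a 40% HFCFD, a diet that promotes steatohepatitis. The labels name 1 liver sample of the genotype Cebp KO and 1 of the genotype Cebp WT, both on this diet. In the study's methods the knockout was made by albumin-Cre, a recombinase driven by a hepatocyte promoter, in mice with floxed Cebpa (Cebpa fl/fl), on a C57BL/6N background and in males, and these sources give no age for the 2 animals. CEBPA is a transcription factor that controls many liver-specific genes. Both libraries share 1 matrix, in which each barcode ends in the suffix 1 or 2, and the labels do not say which suffix is which sample. The libraries are therefore called suffix 1 and suffix 2. There was 1 library of each and no test between them was possible, and every interval given here is a 95% interval that covers counting error only.

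Complement is a cascade of plasma proteins that tags microbes and debris for removal. It is started by the classical pathway, in which C1q activates the proteases C1r and C1s, by the lectin pathway, in which mannose-binding lectins, ficolins and collectins act through the MASP proteases, or by the alternative pathway, which needs factor B, factor D and properdin. All of them converge on C3, and the terminal components then assemble into a pore in the target membrane. The liver is the main source of most of these proteins in blood, while regulators on cell surfaces and receptors on leukocytes limit and read out the cascade.

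The library with suffix 1 held 17313 barcodes and 60048646 unique molecular identifiers (UMIs, 1 per captured transcript), and that with suffix 2 held 15003 barcodes and 52355243 UMIs. Cells of at least 500 UMIs, 200 genes and at most 25% mitochondrial UMIs were kept, which left 11617 and 6088 cells with median depths of 1424 and 2309.5 UMIs. The median mitochondrial share over all barcodes was 4.07% and 41.3%, so the limit removed a larger part of suffix 2. A total of 81 barcode sequences occurred in both libraries, 34 of them among kept cells. Cells were clustered without any complement gene and clusters were named from marker lists that hold none, so the levels given here did not help to name a class. Of 36 clusters 27 were named, and the unnamed ones held 20.1% and 45.7% of the cells. Among the unnamed, clusters 3 and 10 (1455 and 506 cells of suffix 1) and 2 and 6 (1532 and 819 cells of suffix 2) scored highest on the hepatocyte list. They failed another naming rule and are outside the hepatocyte-like class. The hepatocyte-like class had 7296 and 1415 cells, which came mostly from different clusters in each library (0, 1, 4, 9, 12 and 20 with suffix 1, and 5 and 13 with suffix 2). Levels are given as CPM, UMIs per 1000000 UMIs of the class, with suffix 1 first and suffix 2 second. Cebpa itself stood in hepatocyte-like cells at 1.06 (0.669 to 1.58) and 103 (96.2 to 109) CPM and in Kupffer or macrophage-like cells at 141 and 171 CPM. Neither suffix was assigned a genotype from these values.

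Each complement gene was first placed in the cell class where it was highest, among 11 named classes with at least 20 cells in each library and with at least 10 CPM and 10 UMIs of the gene. Hepatocyte-like cells led for 11 of the 36 genes in both libraries (C1s1, C4b, C8a, C8b, C8g, C9, C4bp, Masp2, Mbl1, Mbl2 and Serping1). Kupffer or macrophage-like cells led for 7 (C1qa, C1qb, C1qc, C3ar1, C6, Cfp and Fcna). Endothelial-like cells led for 3 (Cd55, Cd59a and Cd93), stellate-like cells for 3 (C1ra, Masp1 and Colec11), neutrophil-like cells for 3 (C5ar1, C5ar2 and Itgam), cholangiocyte-like cells for 1 (Clu), B-like cells for 1 (Cr2) and plasmacytoid dendritic-like cells for 1 (Itgax). The leading class differed between the libraries for 6 genes (C2, C3, Cfb, Cfd, Cfi and Vtn), of which Cfd passed the limits in no class with suffix 1. The place of Itgax was lost under 7 of the alternatives tried, and that of Clu and of C1ra, Masp1 and Colec11 when at most 10% mitochondrial UMIs were allowed. Of the smaller classes, mesothelial-like cells (3 and 13 cells) were above the named class for C4b (244 and 463 CPM on 2 and 17 UMIs) and, in 1 library each, for C1ra, C1s1, C2, C3 and Serping1. UMIs count captured 3′ ends and are not divided by transcript length, so CPM of different genes are not set against each other as amounts of RNA.

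**Figure D1:**
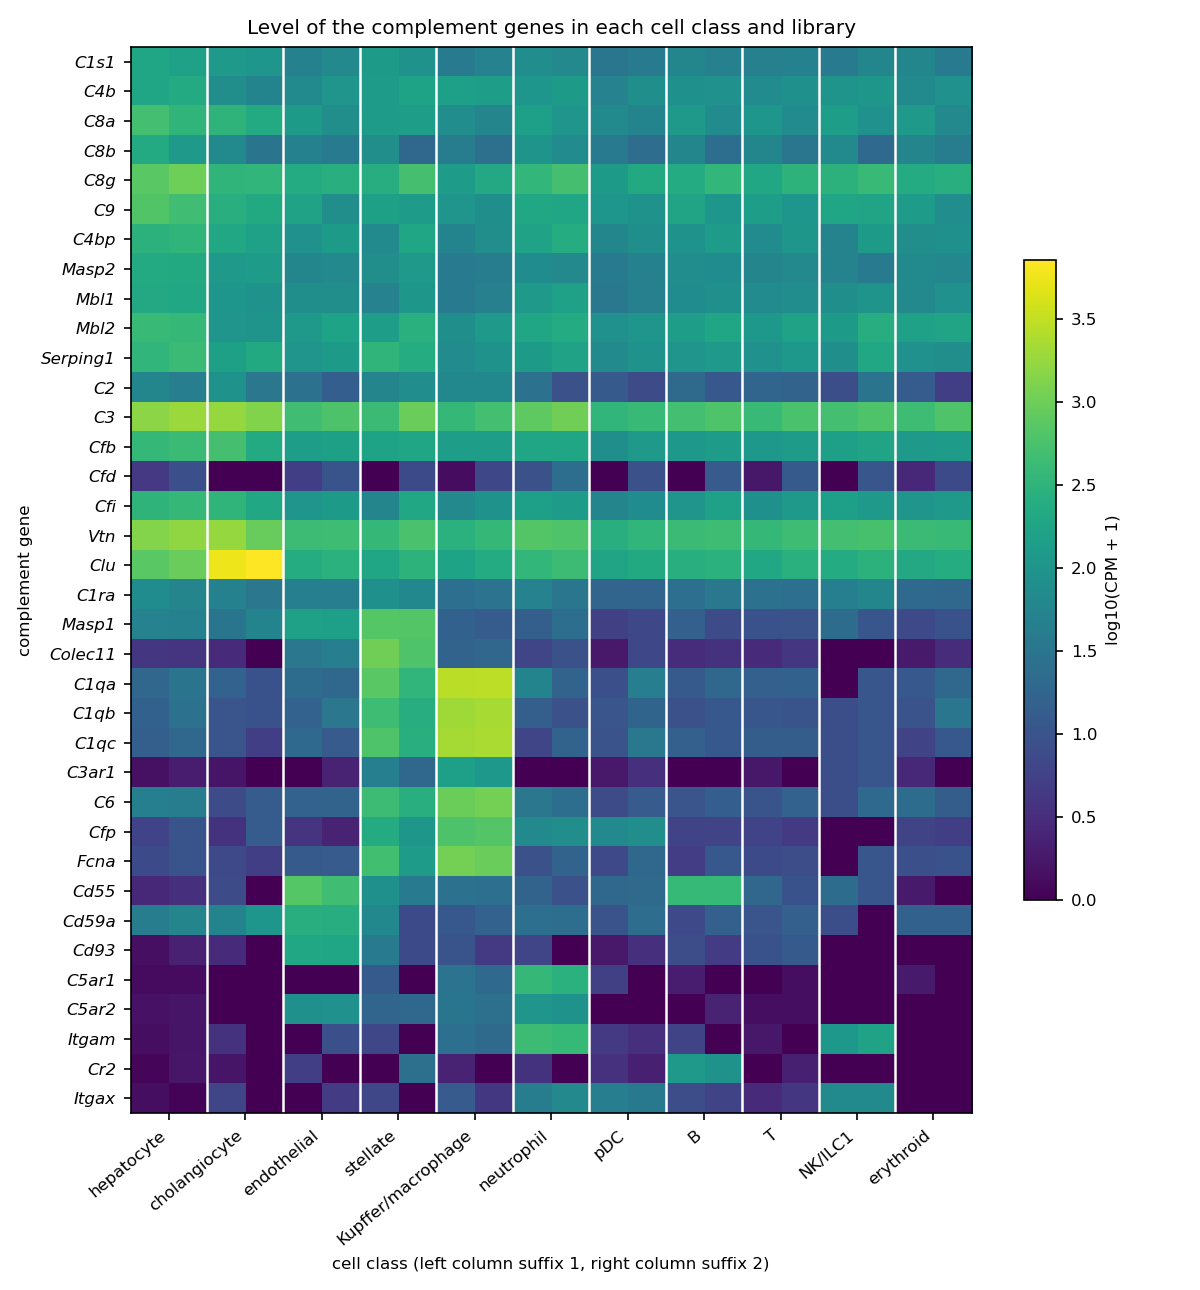
Level of 36 complement genes (rows, ordered by leading class) in 11 cell classes (columns, by library) as log10(CPM + 1). The C1q genes stand out in Kupffer or macrophage-like cells and Clu in cholangiocyte-like cells, while C3 and Vtn were at no less than 268 CPM in any of these classes.

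C1q is the recognition molecule of the classical pathway and is assembled from A, B and C chains, encoded by C1qa, C1qb and C1qc. In Kupffer or macrophage-like cells (324 and 511 cells) C1qa stood at 2863 CPM (interval 2801 to 2926) with suffix 1 and 2923 (2866 to 2981) with suffix 2. C1qb stood there at 2039 and 2259 CPM and C1qc at 2197 and 2354 CPM. C1qa was 159.7-fold and 98.8-fold above hepatocyte-like cells, in which 17.8 and 29.3 CPM were counted, and 85.7% and 85.4% of all C1qa UMIs in kept cells lay in Kupffer or macrophage-like cells. The C1q UMIs of this class were divided into 40.3% C1qa, 28.7% C1qb and 30.95% C1qc with suffix 1, and into 38.8% C1qa, 29.97% C1qb and 31.2% C1qc with suffix 2. The share of C1qc overlapped between the libraries within counting error (30.3% to 31.6% and 30.7% to 31.8%), while those of C1qa and C1qb did not. All of the 3 transcripts were found in 87.7% (83.6% to 91.03%) and 87.9% (84.7% to 90.6%) of these cells. After thinning to 1000 UMIs per cell, which left out 12 and 20 shallower cells, C1qa was seen in 88.8% and 89.0% of Kupffer or macrophage-like cells but in 0.922% and 1.08% of B-like cells, which should lack it. Without thinning the shares were 95.7% and 93.5% at median depths of 8493 and 6129 UMIs, against 4.59% and 5.91% of B-like cells at 3694 and 3205.5 UMIs.

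The C1q genes lie next to each other within 18.7 kb on the minus strand of chromosome 4 (chr4:136880129-136886187, chr4:136889804-136893065 and chr4:136895917-136898803 for C1qb, C1qc and C1qa on GRCm38). RefSeq promoters (GRCm38.p6, 250 bases before to 50 after the gene start) were matched for 27 of the 36 genes and not for 9 (C1qa, C2, C4b, Cfb, Cfi, Masp1, Serping1, Clu and Cd93). The motif GAGGAA, a core bound by the myeloid factor PU.1, was searched on both strands. It occurred for 4 of the 6 matched genes highest in Kupffer or macrophage-like cells (C1qb, C1qc, Cfp and Fcna) and for 0 of the 9 highest in hepatocyte-like cells. Over all matched genes it occurred for 8 of the 27, and it was in 28.3% of 32851 promoters. These promoters belong to 27025 genes, while a complement gene was counted if any of its promoters held the motif, so the units differ. The promoters of C1qb, C1qc and Fcna are printed as examples that share this leading class and the motif, and that of C6 as one that shares the class and does not hold the motif, with GAGGAA or its reverse complement in capitals. Their positions are chr4:136886151-136886450 (minus strand), chr4:136892865-136893164 (minus strand), chr2:25627925-25628224 (minus strand) and chr15:4726960-4727259 (plus strand).
C1qb: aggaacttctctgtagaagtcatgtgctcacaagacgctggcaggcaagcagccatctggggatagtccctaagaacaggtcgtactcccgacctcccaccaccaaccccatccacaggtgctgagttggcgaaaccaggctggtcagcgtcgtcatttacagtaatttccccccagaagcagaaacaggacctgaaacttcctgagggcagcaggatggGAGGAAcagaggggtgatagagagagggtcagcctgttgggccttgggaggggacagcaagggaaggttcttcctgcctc
C1qc: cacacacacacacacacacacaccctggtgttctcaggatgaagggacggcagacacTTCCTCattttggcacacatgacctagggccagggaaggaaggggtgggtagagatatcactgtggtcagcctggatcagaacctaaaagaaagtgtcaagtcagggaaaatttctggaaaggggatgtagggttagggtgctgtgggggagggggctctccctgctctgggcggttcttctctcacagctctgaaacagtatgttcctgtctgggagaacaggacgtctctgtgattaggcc
Fcna: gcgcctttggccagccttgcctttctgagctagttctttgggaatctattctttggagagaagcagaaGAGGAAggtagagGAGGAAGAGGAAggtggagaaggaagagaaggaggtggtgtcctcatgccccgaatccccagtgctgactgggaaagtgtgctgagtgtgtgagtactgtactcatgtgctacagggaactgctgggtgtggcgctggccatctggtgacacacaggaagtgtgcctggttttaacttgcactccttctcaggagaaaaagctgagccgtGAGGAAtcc
C6: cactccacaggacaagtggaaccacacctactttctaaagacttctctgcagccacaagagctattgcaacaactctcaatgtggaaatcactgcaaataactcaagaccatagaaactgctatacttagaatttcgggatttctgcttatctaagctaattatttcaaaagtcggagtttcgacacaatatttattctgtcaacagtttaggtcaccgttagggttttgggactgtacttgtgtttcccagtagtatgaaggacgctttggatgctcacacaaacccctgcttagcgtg

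The lectins that start the lectin pathway were divided over 3 classes. Fcna encodes ficolin A and stood at 1119 (1081 to 1159) and 938 (906 to 971) CPM in Kupffer or macrophage-like cells, against 6.33 and 9.06 CPM in hepatocyte-like cells. Mbl2 and Mbl1 encode the mannose-binding lectins and were highest in hepatocyte-like cells, Mbl2 at 414 (405 to 422) and 371 (359 to 383) CPM and Mbl1 at 214 and 199 CPM. Colec11, which encodes a collectin, was highest in stellate-like cells, which were few (38 and 61 cells). It stood there at 1037 (892 to 1198) and 631 (514 to 768) CPM, against 32.3 and 43.03 CPM in endothelial-like and 3.12 and 2.95 CPM in hepatocyte-like cells.

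The proteases that act directly behind these molecules did not share a class. C1s1, which encodes the C1s protease that cleaves C4 and C2, was highest in hepatocyte-like cells at 187 and 161 CPM. C1ra, which encodes its activator, stood at 84.5 (47.3 to 139) and 63.1 (30.3 to 116) CPM in stellate-like cells on 15 and 10 UMIs, and these intervals included the levels of hepatocyte-like cells (73.1 and 55.1 CPM). Masp1, a protease of the lectin pathway, stood at 682 (566 to 815) and 663 (542 to 802) CPM in stellate-like cells, at 163 (134 to 195) and 149 (123 to 179) CPM in endothelial-like and at 49.6 and 47.9 CPM in hepatocyte-like cells, and the intervals of these classes did not overlap. Masp2, which cleaves C4 and C2, was highest in hepatocyte-like cells at 229 and 217 CPM. C1ra, C1s1, C4b, Cd55 and Cd59a have near-identical copies (C1rb, C1s2, C4a, Cd55b and Cd59b), and their values are uncertain where reads could fall on either copy. C1s2 had 0 UMIs in every named class and C1rb at most 3.38 CPM.

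Kupffer or macrophage markers moved with some complement genes in stellate-like cells. They summed there to 3988 and 1653 CPM (9 and 8 of 9 markers detected, with Marco at 0 with suffix 2), compared with 13875 and 14593 CPM in Kupffer or macrophage-like cells, and C1qa stood at 744 and 341 CPM. In the 19 and 40 stellate-like cells without a UMI of those markers, C1qa was at 0 UMIs (which allows up to 66.4 CPM) and 33.5 CPM. Masp1 stood at 729.8 and 614 CPM in those cells and Colec11 at 420.2 and 804 CPM, so both genes were found there as well. Of the genes highest in Kupffer or macrophage-like cells, C6 remained in those cells at 221 (106 to 407) and 101 (45.98 to 191) CPM, with intervals above its level in hepatocyte-like cells (45.1 and 40.5 CPM). Fcna stood there at 44.2 and 89.4 CPM, on 2 and 8 UMIs.

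**Figure D2:**
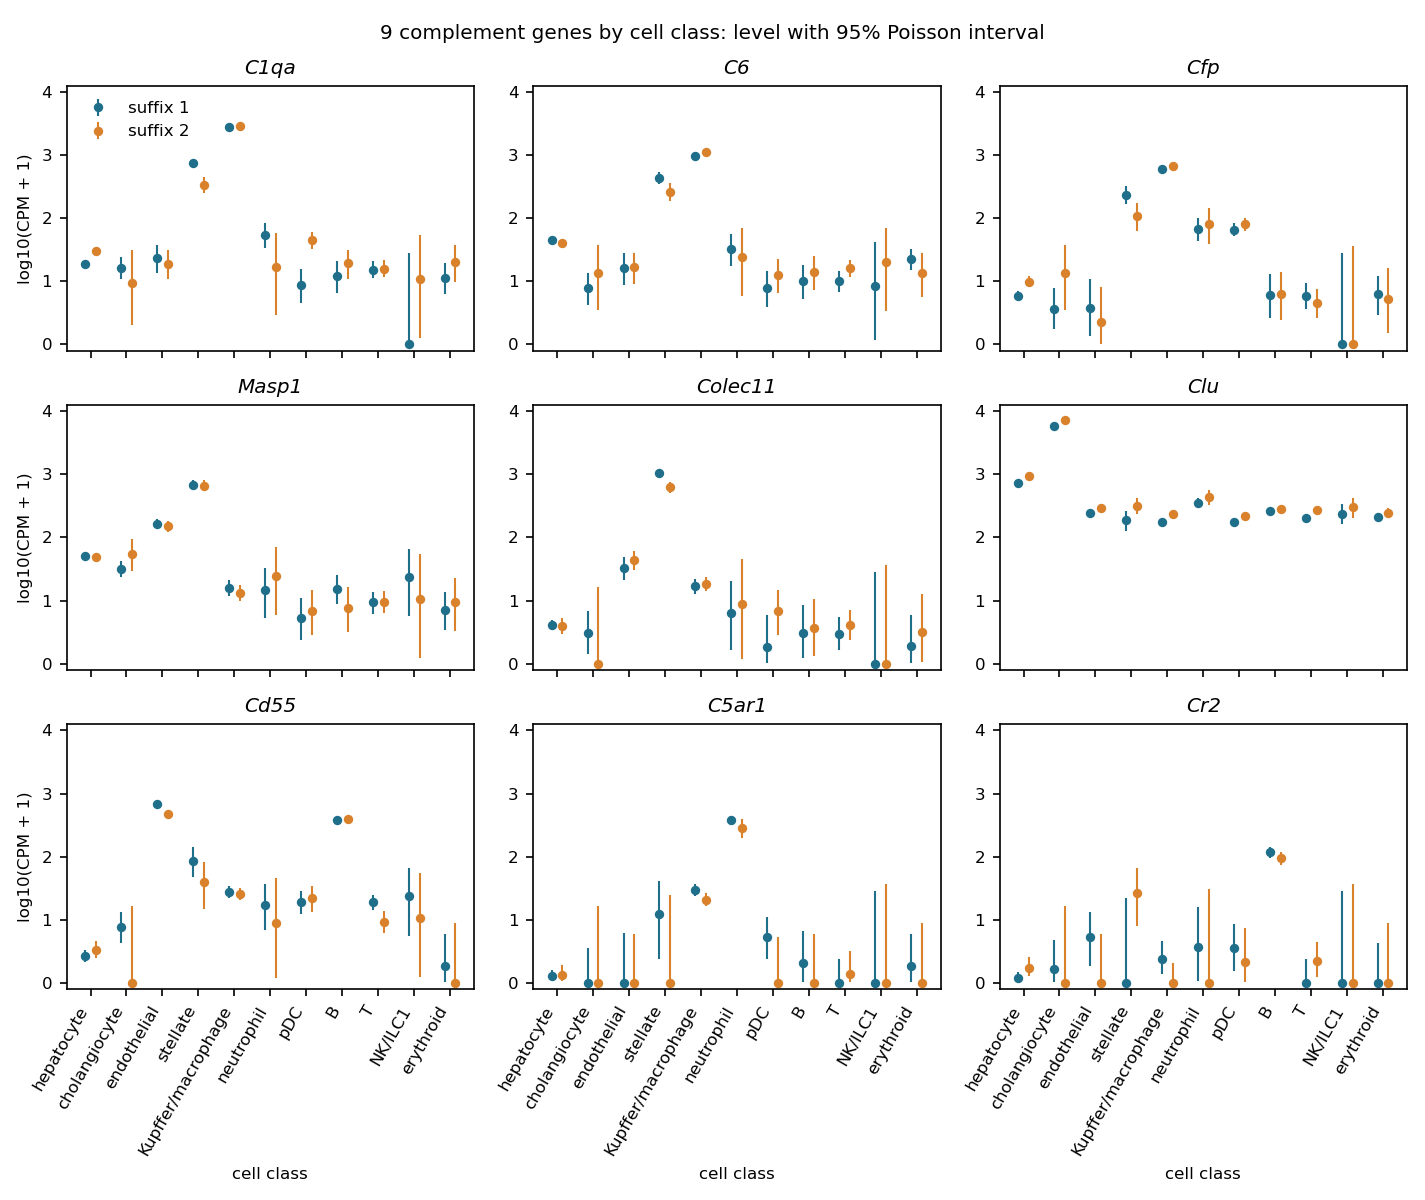
Level of 9 complement genes in 11 cell classes as log10(CPM + 1), with 95% Poisson intervals that cover counting error only; points are the libraries. C1qa, C6 and Cfp peak in Kupffer or macrophage-like cells, Masp1 and Colec11 in stellate-like, Clu in cholangiocyte-like, Cd55 in endothelial-like, C5ar1 in neutrophil-like and Cr2 in B-like cells.

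C4 and C2 form the C3 convertase of the classical and lectin pathways, and C4b, C2 and Cfb lie within 169.9 kb of each other on chromosome 17. C4b stood at 189.5 and 229.9 CPM in hepatocyte-like, 135 and 170.4 CPM in stellate-like and 147 and 145 CPM in Kupffer or macrophage-like cells. Its copy C4a was at 1.01 and 3.69 CPM in hepatocyte-like cells. C2 was low in every class, with 58.1 and 43.7 CPM in hepatocyte-like and 62.5 and 62.4 CPM in Kupffer or macrophage-like cells. Its highest class was cholangiocyte-like with suffix 1, at 90.0 (75.4 to 107) CPM, and stellate-like with suffix 2, at 75.7 (39.1 to 132) CPM on 12 UMIs. Thus, no class could be named as the highest one for C2 in both libraries.

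C3 (chr17:57203970-57228136), on which the pathways converge, had the most UMIs of the 36 genes (74276 in kept cells). It stood at 1513 CPM (interval 1497 to 1529.6) with suffix 1 and 1887 (1859.5 to 1915) with suffix 2 in hepatocyte-like cells. Cholangiocyte-like cells held 1776 (1709 to 1846) and 1326 (1185 to 1480.1) CPM, above hepatocyte-like cells with suffix 1 and below them with suffix 2. Those cells were few (71 and 27) and carried hepatocyte markers at 56414 and 45982 CPM, against 100602 and 107949 CPM in hepatocyte-like cells, and the part of these transcripts in the levels was not tested. Cfb, which encodes factor B, the protease of the alternative C3 convertase, showed the same order, with 367 and 420.4 CPM in hepatocyte-like and 531 and 229 CPM in cholangiocyte-like cells. Cfi encodes factor I, which cleaves C3b and C4b, and stood at 319 and 375 and at 337 and 199.6 CPM in these classes.

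Properdin and factor D are the other proteins of the alternative pathway. Cfp encodes properdin, which stabilizes the convertase, and stood at 599 (571 to 629) and 670.2 (643 to 698) CPM in Kupffer or macrophage-like cells. It was lower in neutrophil-like (67.3 and 79.2 CPM), plasmacytoid dendritic-like (65.6 and 80.1 CPM) and hepatocyte-like cells (4.91 and 8.95 CPM). Cfd encodes factor D, which is known mainly as a product of fat cells. It stood at 3.303 and 7.79 CPM in hepatocyte-like and 0.758 and 11.4 CPM in T-like cells and reached 82.2 (60.2 to 109.7) CPM, on 46 UMIs, in the unnamed cluster 6, where it was among the leading genes and which held 819 cells of suffix 2 at a median depth of 647 UMIs. In this cluster 8 of the 8 hepatocyte markers were raised. Hepatocyte-like cells held 66.7% and 27.3% of the Cfd UMIs in kept cells.

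The terminal components were split between Kupffer or macrophage-like and hepatocyte-like cells. C6 (chr15:4727175-4814967), which joins C5b and starts the pore, stood at 989 (953 to 1026) and 1131 (1096 to 1167) CPM in Kupffer or macrophage-like cells but at 45.1 and 40.5 CPM in hepatocyte-like cells, a difference of 21.9-fold and 27.8-fold. Of its UMIs in kept cells 63.99% and 77.5% lay in Kupffer or macrophage-like cells and 22.4% and 7.67% in hepatocyte-like cells. After thinning, C6 was seen in 54.2% and 61.3% of Kupffer or macrophage-like, 3.53% and 3.29% of hepatocyte-like and 0.922% and 0.541% of B-like cells, and without thinning in 84.3% and 86.3%, 8.64% and 16.7% and 4.13% and 4.84%. The subunits of C8 and C9, which complete the pore, were highest in hepatocyte-like cells. C8g stood there at 739 and 1009 CPM, C9 at 651 and 475, C8a at 498 and 331 and C8b at 230.3 and 117. C8a and C8b are neighbours on chromosome 4 (within 110.1 kb), whereas C8g lies on chromosome 2. C8a, C8g, C1s1, C2, Masp1, Masp2, Fcna and Cd55 each overlap a gene on the other strand in the annotation.

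The promoters of C3 and C8b are printed as examples of a central and a terminal component that hold 1 of 2 further motifs. Capitals mark TTGCNNAA, a core that C/EBP factors bind, or its reverse complement in C3, at chr17:57228087-57228386 (minus strand), and GTTAAT or its reverse complement, a core of the HNF1 site, in C8b, at chr4:104766067-104766366 (plus strand). On both strands TTGCNNAA occurred for 2 of the 9 matched genes highest in hepatocyte-like cells (C1s1 and C9) and for 0 of the 6 highest in Kupffer or macrophage-like cells. It occurred for 5 of all 27 matched genes and in 10.8% of all promoters. GTTAAT occurred for 3 of the 9 (C8a, C8b and C4bp), for 1 of the 6 (Cfp), for 8 of the 27 and in 7.099% of all promoters. A match describes the letters and was not tested as a binding site.
C3: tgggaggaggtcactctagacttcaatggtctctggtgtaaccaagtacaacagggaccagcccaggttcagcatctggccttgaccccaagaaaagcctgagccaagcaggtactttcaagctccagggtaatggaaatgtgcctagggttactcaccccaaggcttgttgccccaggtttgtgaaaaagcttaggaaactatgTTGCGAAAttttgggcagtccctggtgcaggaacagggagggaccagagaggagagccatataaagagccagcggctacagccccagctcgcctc
C8b: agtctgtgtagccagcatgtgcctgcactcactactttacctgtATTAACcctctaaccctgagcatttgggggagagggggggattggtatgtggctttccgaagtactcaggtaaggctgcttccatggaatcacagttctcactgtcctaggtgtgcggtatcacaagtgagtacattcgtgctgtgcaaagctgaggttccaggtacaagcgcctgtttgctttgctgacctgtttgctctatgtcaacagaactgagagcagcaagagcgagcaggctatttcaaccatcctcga

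The soluble regulators did not share a leading class. Serping1, which encodes the C1 inhibitor, was highest in hepatocyte-like cells, at 345 and 419 CPM, and stood in stellate-like cells at 338 and 246 CPM. C4bp, which encodes the C4b-binding protein, was highest there as well, at 302 and 333 CPM. Vtn encodes vitronectin, an inhibitor of the pore, and stood at 1389.5 and 1632 CPM in hepatocyte-like and 1744 and 915 CPM in cholangiocyte-like cells. Clu (chr14:65968483-65981547) encodes clusterin, a further inhibitor of the pore, and was highest in cholangiocyte-like cells at 5759 (5638 to 5883) and 7188 (6854 to 7535) CPM, against 743 and 944 CPM in hepatocyte-like cells. After thinning, Clu was seen in 91.6% and 92.6% of cholangiocyte-like and in 25.4% and 31.9% of B-like cells, and without thinning in 100% and 96.3% and in 62.4% and 63.98%, at median depths of 15742 and 6204 and of 3694 and 3205.5 UMIs.

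Cd55 and Cd59a, the regulators on the cell surface among the 36 genes, were highest in endothelial-like cells (157 and 188 cells) of the 11 classes. Cd55, which speeds the decay of C3 convertases, stood there at 682 (622 to 745) and 467 (419.7 to 518) CPM, followed by B-like cells at 383 (346 to 424) and 389 (346 to 436) CPM, and the intervals of these classes overlapped with suffix 2. It was counted at 1.65 and 2.32 CPM in hepatocyte-like cells. Cd59a, which blocks assembly of the pore, stood at 269 and 256 CPM in endothelial-like and 41.8 and 55.1 CPM in hepatocyte-like cells. Cd93, a surface glycoprotein first described as a C1q receptor, stood at 206 and 189 CPM in endothelial-like and 0.459 and 1.26 CPM in hepatocyte-like cells.

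The receptors for complement fragments were spread over leukocytes. C5ar1, the main receptor for the chemoattractant C5a, stood at 374 (315 to 442) and 285 (199.6 to 395) CPM in neutrophil-like cells (133 and 52 cells), against 28.8 and 19.8 CPM in Kupffer or macrophage-like cells. C5ar2, a further C5a receptor, stood at 102 (72.4 to 140.4) and 95.01 (49.1 to 166) CPM in neutrophil-like and at 84.1 (64.2 to 108) and 87.4 (67.7 to 111) CPM in endothelial-like cells, levels that did not differ beyond their intervals. In endothelial-like cells C5ar1 had 0 UMIs in both libraries, which allows up to 4.21 and 3.91 CPM. C3ar1, the receptor for C3a, was highest in Kupffer or macrophage-like cells at 152 (138 to 167) and 114 (103 to 126) CPM and had 0 UMIs in neutrophil-like cells (up to 8.07 and 23.8 CPM). Itgam, a subunit of complement receptor 3, stood at 447 and 380.0 CPM in neutrophil-like, 111 and 166 in NK or ILC1-like and 24.6 and 20.7 in Kupffer or macrophage-like cells. Itgax, the matching subunit of complement receptor 4, stood at 44.03 and 34.8 CPM in plasmacytoid dendritic-like cells. NK or ILC1-like cells were above them, at 66.9 and 68.2 CPM, but on 9 and 7 UMIs, under the limit of 10. Neutrophil-like cells held 40.4 and 63.3 CPM on 15 and 8 UMIs, above plasmacytoid dendritic-like cells with suffix 2 but under that limit there. Itgax stood at 105 and 140.0 CPM in the 11 and 17 conventional dendritic-like cells, and at 94.7 and 99.4 CPM in the unnamed cluster 17, which carried dendritic and monocyte markers. In the conventional dendritic-like cells 7 of the 7 dendritic markers were raised, and the neutrophil list scored next. Their leading genes began with Camp, Hist1h1b, Top2a, Ngp, Pclaf and Mki67, ahead of the dendritic markers Wdfy4, Naaa and Xcr1. Cr2, complement receptor 2, was highest in B-like cells at 116 (95.5 to 139) and 92.7 (72.4 to 117) CPM, and in T-like cells it had 0 and 3 UMIs, of which the 0 allows up to 1.14 CPM.

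The Kupffer or macrophage-like class was not uniform in these genes. It was made of the large cluster 7 (266 and 441 cells), the shallow cluster 24 (45 and 57 cells) and the small cluster 34 (13 and 13 cells), whose leading genes included Cx3cr1, Ms4a7 and Cd207. C1qa stood at 2979 and 3052 CPM in cluster 34 and at 2834 and 2947 CPM in cluster 7. C1qb was higher in cluster 34, at 3457 (3139 to 3798) and 3064 (2698 to 3467) CPM, than in cluster 7, at 1942 and 2255 CPM. C1qc stood at 1839.7 and 2189 CPM in cluster 34 and at 2203 and 2383 CPM in cluster 7. In contrast, C6 stood at 31.9 (8.68 to 81.6) and 146 (75.4 to 255) CPM in cluster 34 and at 1047 and 1179 CPM in cluster 7. Likewise, Fcna stood at 15.9 and 85.1 CPM in cluster 34 and 1166 and 969 in cluster 7, and Cfp at 31.9 and 134 and at 625 and 693. Vsig4, which encodes a macrophage receptor for C3b, stood at 0 and 109 CPM in cluster 34 (0 UMIs with suffix 1, with an upper interval bound of 29.4 CPM) and 1924 and 2027 in cluster 7, and Clec4f, a Kupffer cell marker, at 0 and 158 and at 3269.5 and 3117. Cd93 was in the opposite order, with 167 (104 to 256) and 48.6 (13.3 to 125) CPM in cluster 34 and 1.52 and 2.47 CPM in cluster 7. Thus, C6, Fcna and Cfp were lower in the cluster with little Clec4f, whereas the C1q genes did not move together, since C1qb was higher there, C1qa overlapped within counting error and C1qc was lower beyond it with suffix 1. In cluster 24, C1qa stood at 3599 and 2039 CPM, C1qb at 2971 and 1722, C6 at 604 and 406, Fcna at 1304 and 633 and Cfp at 652 and 386. Alb stood at 23296 and 28176 CPM in cluster 24 against 7732 and 10231 in cluster 7, and the nuclear transcript Malat1 at 531 and 386 against 5452 and 5638, and their part in the levels of cluster 24 was not tested. With 13 cells of cluster 34 in each library these values are a description, with no test.

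Hepatocyte-like and Kupffer or macrophage-like cells were then compared directly. Of the 36 genes, 32 reached the level for this comparison (10 CPM), and a 4-fold difference in the same direction in both libraries was counted after 3 UMIs were added to each sum. Higher in hepatocyte-like cells were 10 of the 32 (31.3%; C8a, C8b, C8g, C9, Cfi, C4bp, Masp2, Mbl1, Serping1 and Vtn), compared with 7.07% of 8895 genes. Higher in Kupffer or macrophage-like cells were 12 (37.5%; C1qa, C1qb, C1qc, C5ar1, C5ar2, C3ar1, C6, Cfp, Fcna, Colec11, Cd55 and Itgam), compared with 30.1% of genes. Of these, C5ar1, C5ar2, C3ar1, Cfp, Fcna, Colec11, Cd55 and Itgam were under 10 CPM in hepatocyte-like cells of both libraries. They reached the level only through the class in which they were higher, so the count of 12 is not read as a result. The median log2 ratio of hepatocyte-like over Kupffer or macrophage-like cells was 1.58 and 1.59 over the 32 genes and -1.14 and -1.06 over all genes. The count of 10 in hepatocyte-like cells ranged from 2 to 18 over the alternatives tried, and that of 12 fell to 7 among genes of at least 50 CPM. The other 10 genes did not pass 4-fold in both libraries. Among them C3 was at 4.05-fold and 3.72-fold and Mbl2 at 4.95-fold and 3.197-fold, on either side of the limit. Kupffer or macrophage-like cells also carried hepatocyte transcripts. Alb, Apoa1, Apoa2, Ttr, Apoc3 and Ahsg made up 1.76% and 2.298% of their UMIs, against 9.63% and 10.2% in hepatocyte-like cells. Such transcripts lower the fold that a hepatocyte gene can reach, and their part in which genes passed 4-fold was not tested.

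A list of 25 further complement genes was treated in the same way, and 15 of them reached the level. Higher in hepatocyte-like cells were 6 of the 15 (40.0%, against 7.07% of all genes), among them Hc, which encodes C5, Cpn1 and Cpn2, the subunits of the carboxypeptidase that inactivates anaphylatoxins, and Crp, a pentraxin. Higher in Kupffer or macrophage-like cells were 4 of the 15 (Cd46, Vsig4, Itgb2 and Colec10), and this 26.7% was no larger than the 30.1% of all genes. Cd46, Itgb2 and Colec10 were under 10 CPM in hepatocyte-like cells and reached the level only through the Kupffer or macrophage-like class. Vsig4 stood at 1829.6 and 1958 CPM in Kupffer or macrophage-like cells, against 10.2 and 19.4 CPM in hepatocyte-like cells. Colec10, which encodes a collectin that pairs with the product of Colec11, was highest in stellate-like cells at 823 (695 to 967) and 1129.6 (970.2 to 1308) CPM.

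Transcripts of many liver complement genes were counted in every class and were set beside the hepatocyte RNA of that class. For each class and library, the UMIs of a gene were divided by those expected at the ratio to 6 hepatocyte genes (Alb, Apoa1, Apoa2, Ttr, Apoc3 and Ahsg) seen in hepatocyte-like cells. The 6 genes made up 9.63% and 10.2% of UMIs in hepatocyte-like cells, 1.76% and 2.298% in Kupffer or macrophage-like cells, 3.05% and 3.42% in B-like cells and 2.497% and 2.99% in T-like cells. Over the 11 genes highest in hepatocyte-like cells, the median quotient was 0.983 and 1.02 in Kupffer or macrophage-like, 0.986 and 1.01 in B-like and 0.976 and 1.03 in T-like cells. The single genes spread around it with suffix 2 from 0.751 (C8a) to 2.81 (C4b) in Kupffer or macrophage-like, from 0.601 (C8b) to 1.56 (Mbl2) in B-like and from 0.749 (C8a) to 1.51 (Mbl2) in T-like cells. Mbl2 stood at 1.07 (0.953 to 1.197) and 1.51 (1.37 to 1.66) in T-like cells and C8a at 0.7397 (0.6102 to 0.889) and 0.638 (0.479 to 0.832) in B-like cells, so not every gene kept the ratio of hepatocyte-like cells. C3 stood at 1.04 and 0.995 in B-like and 1.03 and 1.03 in T-like cells, and its level was 497 and 628 CPM in the former and 403 and 565 CPM in the latter. After thinning, a C3 UMI was seen in 46.1% and 44.9% of B-like against 73.1% and 81.9% of hepatocyte-like cells, and without thinning in 85.3% and 89.3% against 81.7% and 97.1%, at median depths of 3694 and 3205.5 and of 1118 and 2692 UMIs.

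C1qa, C6, Cfp and Fcna, which were highest in Kupffer or macrophage-like cells, lay far above this ratio there. C1ra in stellate-like cells was nearer to it, at 4.195 (2.35 to 6.92) and 2.43 (1.17 to 4.47) times the ratio. Of the genes with more UMIs in hepatocyte-like cells, some were above it as well. In Kupffer or macrophage-like cells C4b stood at 4.25 (3.85 to 4.67) and 2.81 (2.57 to 3.07) times the ratio and C2 at 5.88 (5.05 to 6.81) and 6.36 (5.54 to 7.27) times. Cfb stood at 2.097 and 1.54 times and C3 at 1.35 and 1.196 times in the same cells. Smaller quotients of C4b were also above 1 beyond counting error in both libraries of T-like cells, at 1.44 (1.24 to 1.66) and 1.28 (1.12 to 1.46), and of plasmacytoid dendritic-like cells, at 1.37 (1.05 to 1.77) and 1.68 (1.32 to 2.12). The same held in stellate-like cells, at 2.59 (1.66 to 3.85) and 1.57 (1.04 to 2.29), and in the unnamed cluster 17, at 1.61 (1.21 to 2.09) and 1.66 (1.35 to 2.02). In B-like cells C4b stood at 1.40 (1.11 to 1.74) and 1.15 (0.896 to 1.46), above 1 beyond counting error with suffix 1 only. The quotient of C2 was 1.11 (0.6803 to 1.72) and 0.714 (0.308 to 1.41) in B-like cells and 3.52 (1.69 to 6.48) and 3.68 (1.90 to 6.42) in stellate-like cells. Thus, the quotients of C2 and C4b were above 1 beyond counting error in Kupffer or macrophage-like cells of both libraries, and not in these cells alone. In cholangiocyte-like cells Clu stood at 13.7 and 17.9 times the ratio, C3 at 2.07 and 1.65 and Cfb at 2.55 and 1.28. Serping1 in stellate-like cells stood at 3.55 (2.71 to 4.57) and 1.25 (0.886 to 1.704) times the ratio, above 1 beyond counting error with suffix 1 only.

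**Figure D3:**
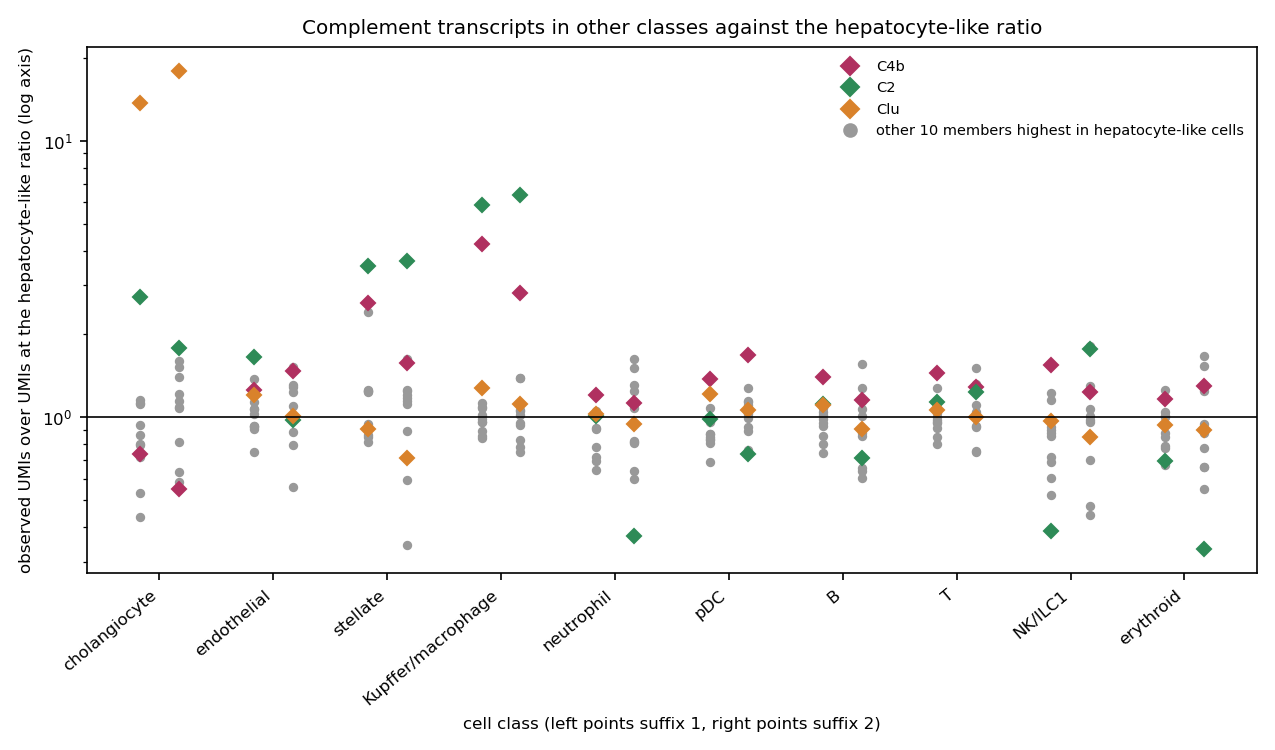
UMIs observed over UMIs at the hepatocyte-like ratio (y, log axis, a line at 1) for genes highest in hepatocyte-like cells (grey) and for C4b, C2 and Clu (coloured) in the other classes, by library. C2 and C4b stand above the line in Kupffer or macrophage-like cells of both libraries, and Clu in cholangiocyte-like cells at 13.7 and 17.9.

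Between the libraries, the complement genes were first compared in hepatocyte-like cells. Of the 36 genes 24 reached 10 CPM, and 0 of the 24 were 2-fold higher with either suffix, compared with 1.97% of 6535 genes with suffix 1 and 1.76% with suffix 2. The median log2 ratio of suffix 1 over suffix 2 was -0.17 over the 24 genes and 0.04 over all genes. C8b came nearest to the limit, at 230.3 CPM (interval 224 to 237) with suffix 1 and 117 (110.1 to 124) with suffix 2, a ratio of 1.97. C8a was 1.51-fold and C9 1.37-fold higher with suffix 1, whereas C1qb was 1.77-fold, C1qa 1.65-fold, C1qc 1.42-fold, C8g 1.37-fold and C3 1.25-fold higher with suffix 2. Kupffer or macrophage markers summed in these cells to 107 and 159.5 CPM, and their part in the C1q values was not tested. Because the class came from different clusters in each library, its clusters were also looked at. C8b stood between 172 and 257 CPM in the clusters 0, 1, 4, 9, 12 and 20 of suffix 1 and between 117 and 118 CPM in the clusters 5 and 13 of suffix 2. C9 stood between 412 and 755 CPM in the former and between 346 and 532 CPM in the latter. Clusters of 1 library are not replicates of it. The share of all genes whose ranges lie apart between these clusters was not counted, so no conclusion is drawn from the ranges.

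In hepatocyte-like cells of at least 5000 UMIs (510 and 458 cells) 24 genes reached the level. C8b, at 245 and 113 CPM, was the 1 of the 24 that was 2-fold higher with suffix 1 (4.17%, against 2.25% of 6770 genes). A further 2 (8.33%, against 2.29%) were 2-fold higher with suffix 2, C1qa at 10.6 and 28.9 CPM and C1qb at 9.91 and 26.5 CPM. C1qb reached 10 CPM through suffix 2 alone, the library in which it was higher, and C1qa was near the limit with suffix 1. The share of 8.33% is therefore not read as a result. Of the further complement genes, Vsig4 was 2.85-fold higher with suffix 2, at 7.304 and 21.02 CPM. It too reached 10 CPM through suffix 2 alone, so the limit itself favoured this call and no conclusion is drawn from the difference. In the same deep cells 9 and 9 of 9 Kupffer or macrophage markers were detected and summed to 101 and 171 CPM, and their part in this difference was not tested.

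**Figure D4:**
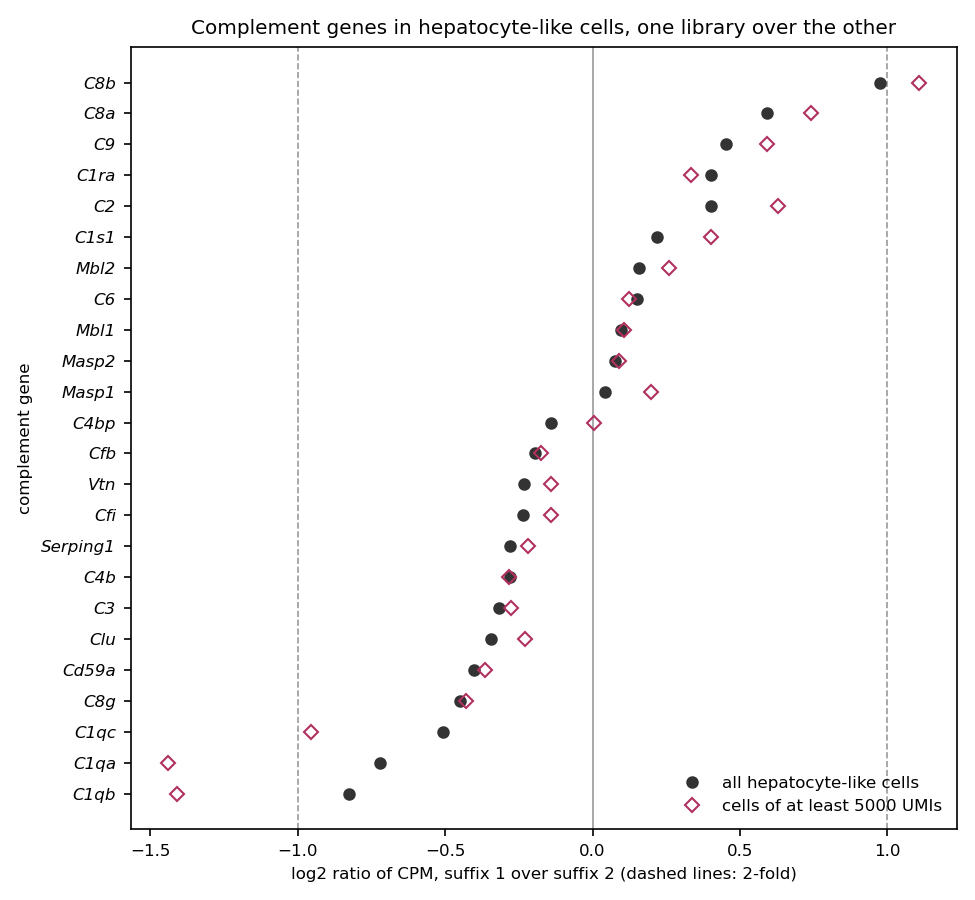
Log2 ratio of CPM of suffix 1 over suffix 2 (x; dashed lines mark 2-fold) for 24 complement genes (y) in all hepatocyte-like cells (filled) and in those of at least 5000 UMIs (open). C8b lies at 0.98 and 1.11, and C1qa at -0.72 and -1.44.

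In Kupffer or macrophage-like cells 33 of the 36 genes reached 10 CPM. Itgax, at 11.9 (8.27 to 16.7) and 3.21 (1.601 to 5.74) CPM, was the 1 of the 33 that was 2-fold higher with suffix 1, compared with 1.6% of 8884 genes. It reached 10 CPM through suffix 1 alone, the library in which it was higher, so the limit itself favoured this call and no conclusion is drawn from it. With suffix 2, 0 of the 33 were 2-fold higher, compared with 0.743% of genes. Itgax rested on 34 and 11 UMIs, of which 10 and 5 lay in cluster 34, and the count was 0 under 7 alternatives. The ratio of suffix 1 over suffix 2 lay between 0.875 and 1.19 for C1qa, C1qb, C1qc, C6, Fcna, Cfp and Vsig4. C3ar1, also highest in this class, was at 1.33, and C5ar1 was at 1.44.

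Hepatocytes differ along the axis from the portal to the central vein. Hepatocyte-like cells of at least 5000 UMIs were therefore ordered within each library by the level of 6 pericentral less 6 periportal genes and divided into 3 ranges of equal cell number, which are ranges of a score and not cell types. This limit left 510 of 7296 and 458 of 1415 cells. Cluster 4 (1195 cells of suffix 1), whose leading genes began with Glul and Oat, had a median of 1074 UMIs, so most of it was left out. The deep clusters were 9 (525 cells of suffix 1, median 26759 UMIs) and 13 (425 cells of suffix 2, median 15088 UMIs). The order thus describes deep cells and not the whole class. Of the 6 pericentral genes in the score, Rgn was 10.96-fold and 16.6-fold and Cyp2e1 10.1-fold and 7.1-fold as high in the pericentral as in the periportal range. Oat stood at 7.26-fold and 8.84-fold, Cyp1a2 at 6.57-fold and 7.28-fold and Glul at 4.37-fold and 11.25-fold. Slc1a2 stood at 1.94-fold and 12.4-fold, on only 4 and 21 UMIs in the pericentral range. Of the 6 periportal genes in the score, Aldh1b1 was 2.36-fold and 2.64-fold, Sds 1.996-fold and 1.13-fold and Hsd17b13 1.42-fold and 1.51-fold as high in the periportal as in the pericentral range. The other periportal genes differed less with suffix 1, with Cyp2f2 at 1.08-fold and 1.37-fold, Hal at 1.03-fold and 1.66-fold and Gls2 at 0.969-fold and 1.22-fold. The periportal range was deeper (median 32122 and 18303 UMIs) than the pericentral range (21020.5 and 11130.5 UMIs). Of 24 genes of at least 10 CPM, 1 (4.17%) was 1.5-fold higher in the periportal range of both libraries, compared with 0.426% of 6341 genes. This was Cfb (chr17:34856374-34862518), which stood from the periportal to the pericentral range at 426 (409 to 445), 309 and 257 (241 to 274) CPM with suffix 1 and at 461 (436 to 486), 386 and 258 (236 to 282) CPM with suffix 2. C3 was lower in the same order, at 1817, 1374 and 1305 CPM and at 2287, 1801 and 1224 CPM, and its periportal level was 1.39-fold and 1.87-fold the pericentral one. Vtn was 1.45-fold and 1.44-fold higher in the periportal range, and Alb, which encodes albumin, 1.22-fold and 1.47-fold. A further 1 gene (4.17%, against 0.883% of genes) was 1.5-fold higher in the pericentral range. This was C1qc, at 7.404, 10.5 and 13.3 CPM and at 15.2, 21.1 and 24.2 CPM, and its intervals overlapped between the outer ranges. With suffix 1 C1qc reached 10 CPM in the pericentral but not in the periportal range. The other C1q genes were in opposite order with suffix 2, since C1qa was 1.97-fold and 0.758-fold and C1qb 1.59-fold and 0.551-fold as high in the pericentral as in the periportal range. The macrophage gene Vsig4 was 2.06-fold and 1.09-fold as high. Hepatocyte-like cells held 4.05% and 1.94% of the C1qc UMIs. Kupffer or macrophage markers summed to 76.8 and 164 CPM in the periportal and 120.3 and 145 CPM in the pericentral range, and their part in this difference was not tested. The periportal count was 0 when cells of at least 2000 UMIs were ordered or cells were not filtered and 3 with classes set per cell or by coarser clusters, and the pericentral count was 0 under 7 alternatives.

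The other genes did not differ by 1.5-fold in both libraries along this order. C9 stood at 665, 749 and 870.2 CPM with suffix 1 and at 521, 502 and 456 CPM with suffix 2, in opposite order. Serping1 stood at 384, 349.9 and 354 CPM with suffix 1 but at 498, 445 and 279.8 CPM with suffix 2. The median log2 ratio of pericentral over periportal was -0.10 and -0.29 over the 24 genes and 0.04 and 0.05 over all genes.

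**Figure D5:**
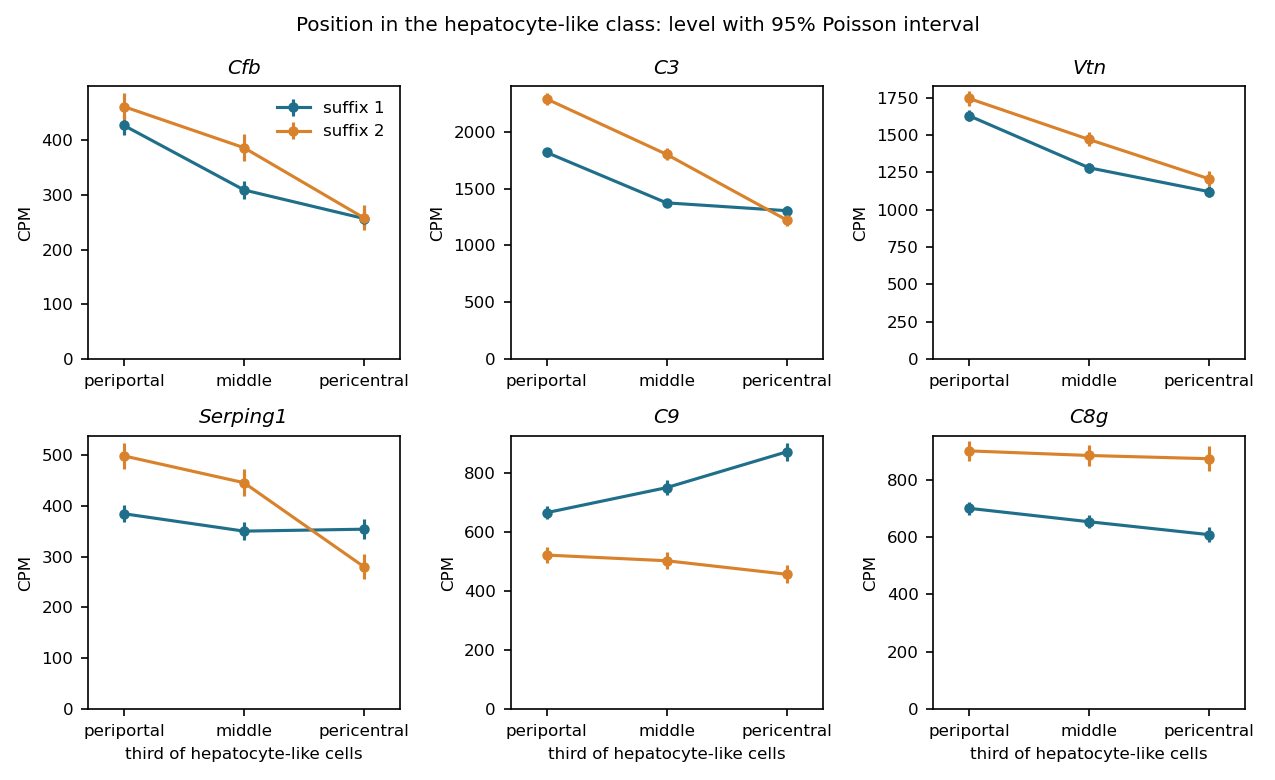
CPM (y, from 0) of 6 complement genes in the periportal, middle and pericentral range (x) of hepatocyte-like cells of at least 5000 UMIs, with 95% Poisson intervals that cover counting error only. Cfb, C3 and Vtn are lower from the periportal to the pericentral range in both libraries, while C9 is in opposite order in suffix 1 and suffix 2.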

How the data were processed

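Liver cells of 2 samples, 1 per genotype in the labels, were measured by 10x 3′ single-cell RNA-Seq. The authors deposited 1 matrix of raw UMI counts per gene and cell, made with Cell Ranger 7.1.0 per the file header, and the submitters' processing notes name bcl2fastq 2.20.0, STAR 2.7.2a and the build mm10. How introns were counted and cells called is not stated in the labels, headers or methods used here. No column of another sample was found (0). The members and lists were chosen with earlier results of these data known.

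Cells of at least 500 UMIs, 200 genes and at most 25% UMIs of 13 mitochondrial genes were kept. They were clustered (2000 variable genes, 30 principal components, 15 neighbours, Leiden resolution 1) in Python 3.11.15 with scikit-learn 1.9.0, igraph 0.11.9 and leidenalg 0.10.2, without complement, sex-linked and mitochondrial genes. Clusters were named from 16 marker lists, by a mean log2 score of at least 1 with at least 3 markers raised 2-fold, and are called X-like. No doublet caller was run and doublets were kept, and an alternative left out the deepest cells of each class.

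UMIs were summed per class and library as CPM, with exact Poisson intervals, and shares of cells were given exact binomial (Clopper-Pearson) intervals with scipy 1.17.1. These 95% intervals, and the limit of 3 UMIs for a count of 0, cover counting error only. With 1 sample per group and no map from suffix to sample no test was made. Differences were counted past 4-fold between classes, 2-fold between libraries and 1.5-fold between position ranges, for genes of at least 10 CPM, with 3 UMIs added. The 10 CPM had to be reached on only 1 side of a comparison. All 36 members were named, and the 25 further complement genes were counted as a list and named past a fold or at 100 CPM in a class, except that some of them are not reported here. In a simulation of the comparison of libraries in hepatocyte-like cells, 200 of 200 genes changed 3-fold were called and 0 of the others, among 6230 genes. Both sides were drawn with counting error only from the profile of suffix 2. The simulation therefore does not cover the different clusters of the libraries or differences between animals. Promoters came from RefSeq (GRCm38.p6) and gene positions from GENCODE M21, in which 32158 of the 32285 gene IDs were found. Counting cluster 17, of mixed myeloid markers, as a class and leaving out stellate-like cells with Kupffer or macrophage marker UMIs were alternatives chosen after seeing the data.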

Additional observations from a re-analysis of the deposited data

Results flagged for a closer look

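Signals were also found in droplets and clusters outside the cells and classes of the reported comparisons. In the 5675 droplets of suffix 1 over the mitochondrial limit, C3 stood at 1530.1 CPM and C1qa at 53.07 CPM. In the 8886 such droplets of suffix 2, C3 stood at 2040.8 CPM and C1qa at 41.06 CPM. The unnamed cluster 22, which held 155 cells of suffix 2, had C6 at 113 CPM. The unnamed cluster 27, which held 78 cells of suffix 1, had C6 at 267.7 CPM. No label ties a suffix to the wild-type sample, so these values could not be set against a control, and each exceeded the level that 3 UMIs would give.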

How the results depend on the processing

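No paired analysis was possible because the groups have 1 sample each and no label maps a barcode suffix to a sample, and for the same reason no replicate could be left out. Of 216 recomputed counts of genes 164 stayed within 1.5 times the reported count and 52 moved, and of 338 recomputed values of single genes 186 stayed within their counting interval and 152 did not. No result reversed, and the causes of the changes were not tested. With a mitochondrial limit of 10%, hepatocyte-like cells led for 17 genes, endothelial-like for 5, stellate-like and cholangiocyte-like for 0, and 1 gene differed between libraries. After the CPM of B-like cells was subtracted, B-like cells led for 0 genes, which follows from the subtraction, and 2 genes were below the limit. Plasmacytoid dendritic-like cells led for 0 genes with classes per cell, no filter on cells, a mitochondrial limit of 50%, a minimum of 1000 UMIs, the deepest 5% of cells left out, means over cells, or the mixed myeloid cluster as a class. The number of genes 4-fold higher in hepatocyte-like than in Kupffer or macrophage-like cells was 10 as reported, 2 with classes per cell and with means over cells, 4 with no filter on cells, 6 with a mitochondrial limit of 50% and 18 with B-like CPM subtracted, and that of genes higher in Kupffer or macrophage-like cells was 7 of genes of at least 50 CPM. Between libraries in Kupffer or macrophage-like cells, the count higher with suffix 1 was 0 at Leiden resolution 0.5, with classes per cell, mitochondrial limits of 10% and 50%, a minimum of 1000 UMIs, B-like CPM subtracted and genes of at least 50 CPM, and 2 with means over cells. In hepatocyte-like cells it was 1 with no filter on cells, a mitochondrial limit of 50%, B-like CPM subtracted and cells of at least 5000 UMIs. The count higher with suffix 2 was 1 at Leiden resolution 0.5, with classes per cell, no filter on cells, mitochondrial limits of 10% and 50%, means over cells and B-like CPM subtracted, and 2 in cells of at least 5000 UMIs or when cells under 1000 UMIs were removed. The pericentral count was 0 at Leiden resolution 0.5, with classes per cell, no filter on cells, a mitochondrial limit of 50%, a minimum of 1000 UMIs, genes of at least 50 CPM and position from cells of at least 2000 UMIs. The periportal count was 3 at Leiden resolution 0.5 and with classes per cell, and 0 with no filter on cells and position from cells of at least 2000 UMIs. Depth limited the small classes, in which levels near the limit of a count of 0 could not be told apart.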
